A study of Homo sapiens with 24 samples.

Results

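Estradiol was compared with no added hormone in parental HCT116 cells, a line long established from a human colon carcinoma and here without an introduced receptor, across normoxia and hypoxia. The comparison holds 12 of the 24 arrays of the series, chosen by their labels: 6 estradiol arrays and 6 control arrays, in 4 groups of 3. These are parental cells (labelled WT) given 10 nM 17β-estradiol in normoxia, parental cells without treatment in normoxia, parental cells given 10 nM 17β-estradiol in hypoxia, and parental cells without treatment in hypoxia. The other 12 arrays repeat the same 4 conditions in cells labelled as overexpressing ESR2 (ESR2 cells), a puromycin-selected population that carries estrogen receptor beta with a HaloTag from a lentivirus. Per the labels, estradiol was given to cells kept before and during treatment in phenol-red-free medium with charcoal-stripped serum, and hypoxia was made by flushing an incubator with nitrogen and CO2. No source used here gives the medium of the untreated cells, a vehicle or the treatment times, so the hormone and a change of medium cannot be told apart. The labels do not say that replicates were separate cultures, and the spread behind the p-values may then be technical rather than biological.

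Estradiol is the main natural estrogen. It acts mainly through 2 nuclear receptors, estrogen receptor alpha (gene ESR1) and beta (gene ESR2), which bind DNA as dimers at estrogen response elements or through other transcription factors, and recruit cofactors that raise or lower transcription. A membrane receptor, GPER1, signals through kinases. In breast cancer cells the hormone induces genes such as GREB1, TFF1 and PGR, whereas normal colon epithelium is known mainly for its beta receptor, whose level falls in many colon tumours.

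Signals were log2 values made by the authors with RMA, a method that background-corrects, quantile-normalizes and sums up the probes of each probe set, and 18239 genes were tested on the brightest probe set of each. Replicate 2 of the normoxic control stood apart from the other arrays. It correlated across genes at 0.991 to 0.993 with the other arrays of its group, while the lowest correlation between other arrays of the same group was 0.998. Its 3′ minus 5′ signal of beta-actin, a control that increases as labelled RNA gets shorter, was 5.20 on the log2 scale, against 2.69 to 2.88 on the 6 estradiol arrays and 2.47 to 2.91 on the other 5 controls. Many values below are therefore also given without that array. Over all 12 arrays 7 control measures gave p = 0.145 to 0.99 for estradiol against control (exact two-sided permutation within oxygen levels, n = 6 each, adjusted p = 0.99 for each). They were the 3′ minus 5′ signals of beta-actin, GAPDH and the dap and thr spike-ins, and the mean of these without GAPDH. The 5′ signals of 18S and 28S ribosomal RNA were also among the 7. Within hypoxia, where that array plays no part, 4 of them did not overlap between groups. Beta-actin was 2.70 to 2.73 with estradiol, against 2.47 to 2.64 in controls, the dap spike-in 2.24 to 2.34, against 2.05 to 2.14, and the thr spike-in 2.59 to 2.72, against 2.31 to 2.44. The mean of these 3 was 2.54 to 2.57 with estradiol, against 2.28 to 2.41 in controls. The 11 measured colon epithelial markers averaged 6.58 to 6.93 with estradiol and 6.49 to 6.98 without, and the 12 fibroblast markers 3.15 to 3.22 with estradiol and 3.14 to 3.24 without.

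No gene passed the test for estradiol in parental cells. limma, with oxygen as a block and Benjamini-Hochberg adjustment at 0.05, called 0 of 18239 genes (0%), and the smallest adjusted p was 0.125, for ATOH1. At an unadjusted p under 0.05 there were 1883 genes (10.3%), 974 higher (5.34%) and 909 lower (4.98%) with estradiol. Without replicate 2 of the normoxic control, limma again called 0 genes, with 1890 at an unadjusted p under 0.05 and a smallest adjusted p of 0.0988. The median SE of a difference was 0.06 on the log2 scale, and the median size of a difference was 0.06. The test missing its threshold does not show that the hormone was without effect. The intervals bound only the pooled difference over both oxygen levels, not that at either level or the hormone apart from its medium. They use the spread between replicates, which may be technical. The 95% interval of the difference lay within 1.5-fold in either direction for 18091 genes (99.2%) and within 2-fold for 18236. Without the array that stood apart the interval lay within 1.5-fold for 18238 genes, the exception being RSRP1.

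The same arrays and the same model recorded large differences for oxygen. With estradiol as the block, limma called 7974 genes (43.7%) between hypoxia and normoxia, 3715 higher (20.4%) and 4259 lower (23.4%), and 932 of them differed by over 2-fold. Of 34 measured target genes of the hypoxia-inducible factors, 32 rose in hypoxia, with a median log2 difference of 2.07. The same 34 genes had a median difference of -0.01 for estradiol, and 0 of them passed. Correlations between arrays gave the same order: an estradiol array and a control of the same oxygen level correlated at 0.9977 to 0.9985 (leaving out the array that stood apart), arrays of the same group at 0.9980 to 0.9986, and arrays of different oxygen levels at 0.9795 to 0.9830.

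**Figure D1:**
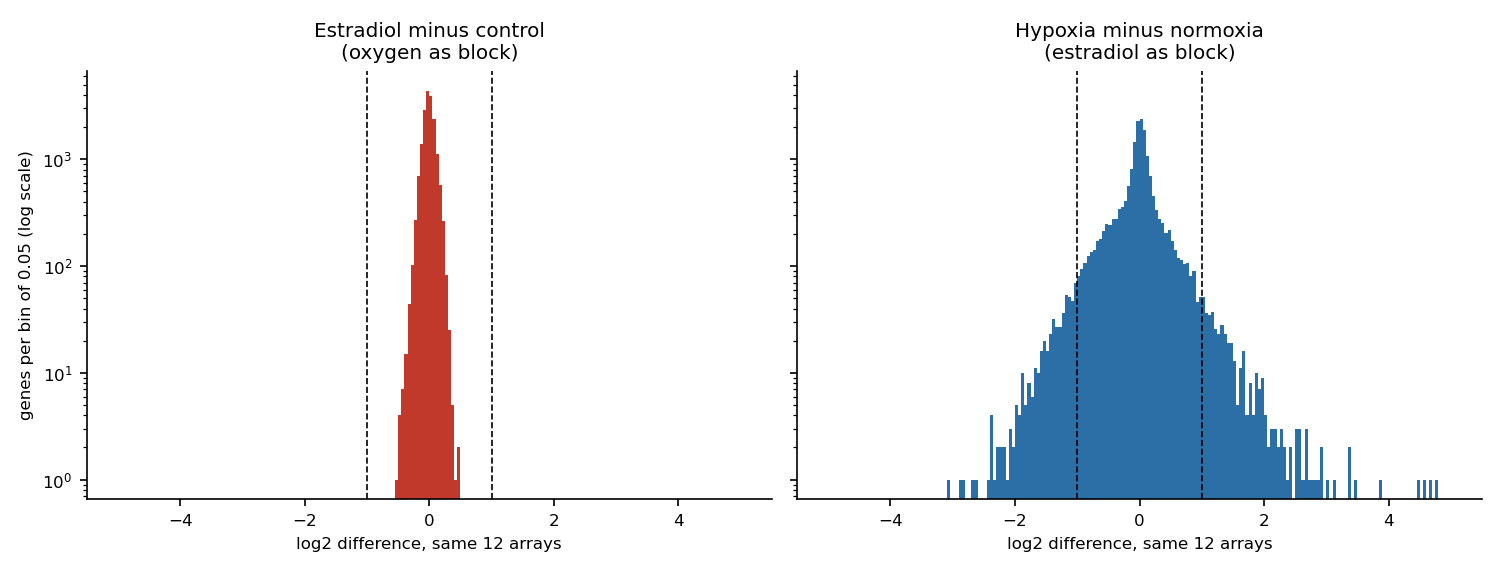
Histograms of log2 differences of 18239 genes on the same 12 parental arrays, for estradiol minus control (left) and hypoxia minus normoxia (right). The vertical axis counts genes per bin on a log scale, and dashed lines mark 2-fold. The largest estradiol difference is 0.53 in size on the log2 scale, and 0 genes passed, whereas 7974 passed for hypoxia.

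The nuclear receptor genes ESR1 and ESR2 were measured at low signal. ESR1, the alpha receptor, read 3.93, 3.88 and 3.93 with estradiol in normoxia, against 4.03, 4.03 and 4.05 in controls. In hypoxia it read 3.93, 4.23 and 4.07 with estradiol, against 4.34, 4.26 and 4.30 in controls. Every estradiol array lay below every control of its oxygen level, a separation in one direction at both levels that 343 of 18239 genes (1.88%) showed, 188 of them below (1.03%). The pooled log2 difference of ESR1 was -0.17 (SE 0.05), and it did not pass (limma, adjusted p = 0.442). Only the brightest probe set gave that value, since the 5 probe sets of ESR1 ranged from -0.17 to 0.08.

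ESR2, the beta receptor, read 3.28, 3.48 and 3.56 with estradiol in normoxia, against 3.35, 3.54 and 3.52 in controls. In hypoxia the values were 3.40, 3.50 and 3.53 with estradiol, against 3.46, 3.31 and 3.53 in controls. The groups overlapped at both oxygen levels, and the pooled difference was 0.01 (95% interval -0.12 to 0.14). The same probe set averaged 4.51 ± 0.44 in normoxic control ESR2 cells (SD, n = 3), so the parental values lay below those of cells given the transgene.

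GPER1, the membrane receptor, was the brightest of the 3 and read 5.20, 5.40 and 5.18 with estradiol in normoxia, against 5.20, 5.18 and 5.31 in controls. In hypoxia it read 5.17, 5.27 and 5.38 with estradiol, against 5.54, 5.21 and 5.27 in controls. The groups overlapped, with a pooled difference of -0.02 (95% interval -0.16 to 0.12). Of the orphan estrogen-related receptors, which do not bind estradiol, ESRRA differed by -0.19 (SE 0.08), or -0.11 without the array that stood apart, ESRRG by -0.12 (SE 0.05), and ESRRB by -0.01, and none of them passed. Of the 6 receptor genes, 3 had an unadjusted p under 0.05, all lower, beside 4.98% of all genes lower.

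The best-known estrogen-induced genes of breast cancer cells showed no call either. GREB1, a receptor cofactor that is itself a direct target, read 5.04, 5.23 and 5.48 with estradiol in normoxia, against 5.42, 5.49 and 5.16 in controls. In hypoxia it read 6.16, 6.16 and 6.15 with estradiol, against 6.16, 6.23 and 6.20 in controls. Its arrays overlapped at both oxygen levels, and the pooled difference was -0.07 (95% interval -0.23 to 0.08), or -0.04 without the array that stood apart. By oxygen, on the same arrays, GREB1 rose by 0.88 on the log2 scale in hypoxia. TFF1, a secreted trefoil peptide that protects mucosa, read 3.83, 3.75 and 3.68 with estradiol in normoxia, against 3.70, 4.14 and 3.75 in controls, and in hypoxia 3.78, 3.74 and 3.63 with estradiol, against 3.67, 3.63 and 3.73 in controls. Its difference was -0.03 over all arrays and 0.04 without the array that stood apart, which holds the 4.14. PGR, the progesterone receptor, lay between 2.88 and 3.08 on all 12 arrays and differed by -0.01 (95% interval -0.10 to 0.08).

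**Figure D2:**
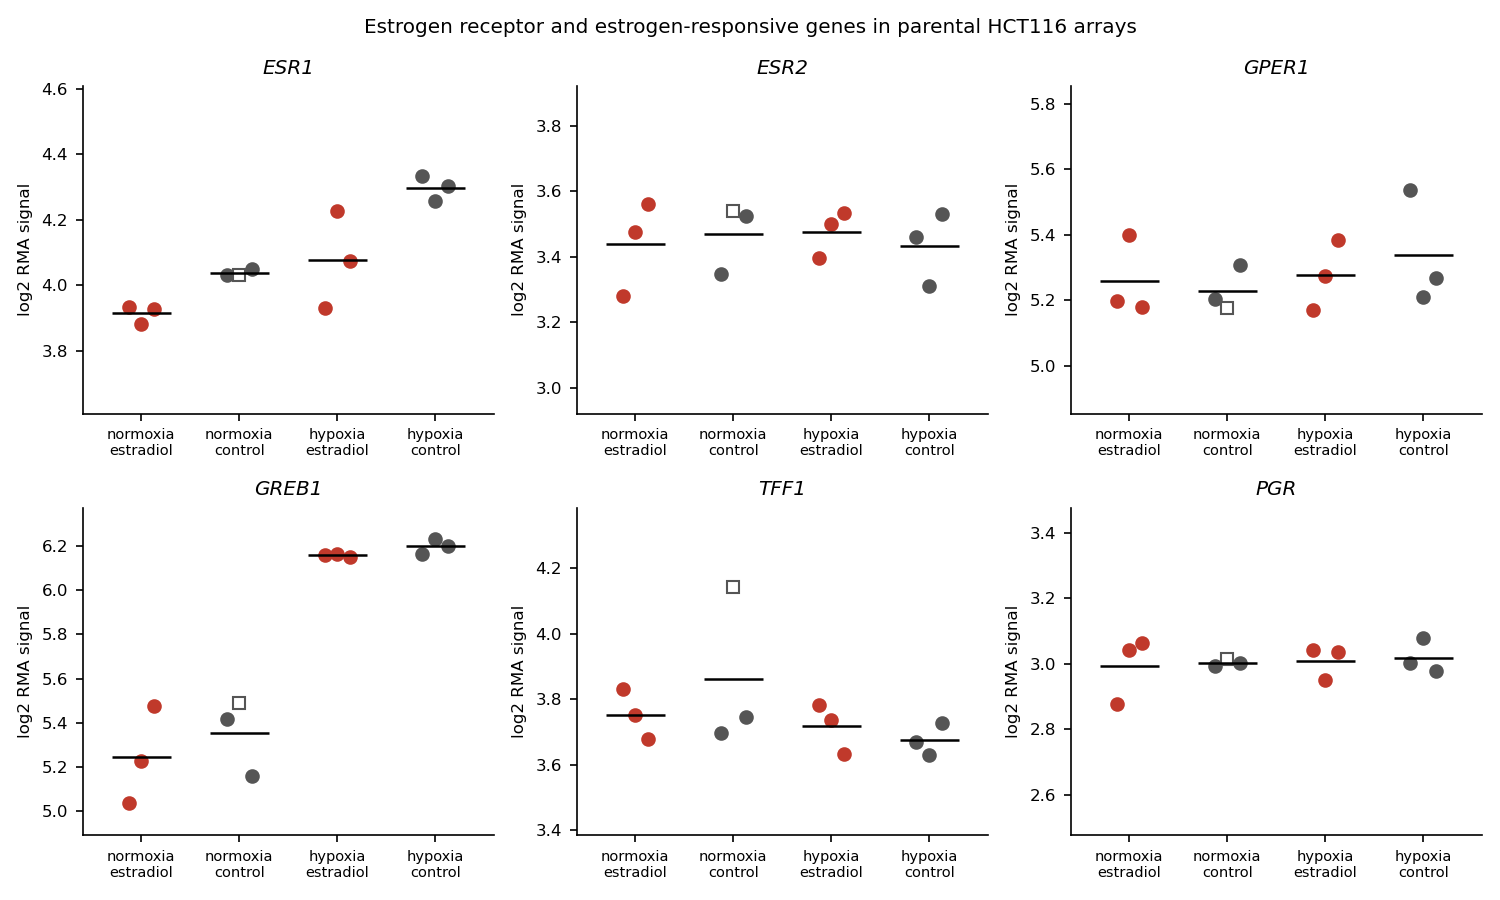
RMA log2 signal of 3 receptor genes (top) and 3 genes known as estrogen-induced in breast cancer cells (bottom) on each parental array, with estradiol in red, controls in grey, and bars at group means of 3 arrays. The open square is normoxic control replicate 2. ESR1 is lower with estradiol at both oxygen levels without passing the test, with a pooled difference of -0.17, and the other 5 genes overlap.

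A list of 34 estrogen response genes, of which 32 were measured, held no call. At an unadjusted p under 0.05, 2 were higher and 3 lower (beside 5.34% and 4.98% of all genes), and the median log2 difference was 0.03, beside -0.01 over all genes tested. Among the members with the smallest p, CELSR2, a cadherin receptor of planar cell polarity, differed by -0.18, and SGK3, a serum- and glucocorticoid-regulated kinase, by 0.14. XBP1, the transcription factor of the unfolded protein response, differed by -0.18 and RARA, a retinoic acid receptor, by -0.17, or by -0.12 and -0.11 without the array that stood apart, and neither passed. All 32 intervals lay within 1.5-fold, the widest reaching 1.38-fold.

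The full palindromic estrogen response element is the sequence to which a receptor dimer binds most tightly. The half-site GGTCA, 3 bases of any kind and its mirror TGACC, a run that reads the same on both strands, were searched in RefSeq promoters of GRCh38.p14, from 250 bases before to 50 after a gene's start. They were found in 20 of 35116 promoters (0.057%), and 6 of 14484 genes on the array with a promoter in the table held them (0.0414%). The matches of those 6 genes are shown, each with 6 flanking bases and the palindrome in capitals, because among the genes searched they are the ones whose promoters hold the unbroken element.
MROH7, chr1:54641719-54641743, plus strand: cttctgGGTCATGGTGACCtcataa
ZNF669, chr1:247104512-247104536, minus strand: aaaagcGGTCATTCTGACCtcatcc
EVX2, chr2:176083934-176083958, minus strand: tgtatgGGTCATTTTGACCagtcat
PRR16, chr5:120531416-120531440, plus strand: gccaggGGTCATTGTGACCtaaatg
SLC35B2, chr6:44257751-44257775, minus strand: ggcaatGGTCACCATGACCtctggg
USHBP1, chr19:17264724-17264748, minus strand: ggcagtGGTCAGAGTGACCccaaca

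None of the 6 passed the test for estradiol, and 0 had an unadjusted p under 0.05 (the smallest was 0.0814). SLC35B2, a Golgi transporter of the sulphate donor PAPS, differed by -0.26 (SE 0.15), or -0.09 without the array that stood apart. ZNF669, a zinc finger protein, differed by 0.14 (SE 0.07). EVX2, a homeobox factor, differed by 0.05, PRR16 by 0.00, MROH7 by -0.03 and USHBP1 by -0.05, or by 0.04, -0.03, -0.06 and -0.02 without that array. The median of the 6 was -0.02. A match is a description of the letters only, and response elements with a changed base or outside these windows were not searched.

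The 12 genes with the smallest p below control did not pass, and in all 12 the arrays of both oxygen levels were separated (beside 1.03% of all genes below at both levels); the choice by p favours such separation. ATOH1, the transcription factor that commits intestinal cells to the secretory lineage, read 3.59, 3.60 and 3.61 with estradiol in normoxia, against 3.87, 3.90 and 3.94 in controls. In hypoxia it read 3.48, 3.46 and 3.42 with estradiol, against 3.71, 3.73 and 3.62 in controls. All of these are dim signals with small gaps that repeat at both oxygen levels, and the pooled difference was -0.27 (SE 0.04; limma, adjusted p = 0.125). HERPUD1, an endoplasmic reticulum membrane protein of protein degradation that is induced by unfolded proteins, was bright, at 9.07, 9.22 and 9.21 with estradiol in normoxia, against 9.40, 9.71 and 9.41 in controls. In hypoxia it read 9.82, 9.81 and 9.71 with estradiol, against 10.11, 10.09 and 10.13 in controls. Its difference was -0.33 (SE 0.06), a 1.26-fold lower signal (limma, adjusted p = 0.324, and 0.0988 without the array that stood apart). CNTLN, a centriole protein, had the largest difference of the 12, at -0.41 (SE 0.07).

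The other 9 lower genes differed by -0.31 to -0.19. HES1, a Notch-induced repressor, read 5.70, 5.88 and 5.84 with estradiol in normoxia, against 6.04, 5.97 and 5.90 in controls, and 7.04 on all 3 estradiol arrays in hypoxia, against 7.34, 7.29 and 7.41 in controls. WASF2, which drives actin branching, differed by -0.27, and L3HYPDH, a hydroxyproline dehydratase, by -0.27. The remaining 6 were SPINK2, a protease inhibitor (-0.31), GGNBP1 (-0.20), FAM131A (-0.21), AKAP17A, a kinase-anchoring splicing protein (-0.19), CDAN1, a regulator of histone assembly (-0.21), and SERTAD3, a transcription cofactor (-0.20).

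The 12 genes with the smallest p above control did not pass either, with differences of 0.19 to 0.40 and limma adjusted p of 0.324 to 0.409. RIC1, part of an exchange factor for a Golgi GTPase, read 5.48, 5.53 and 5.53 with estradiol in normoxia, against 5.28, 5.15 and 5.33 in controls. In hypoxia it read 5.55, 5.35 and 5.41 with estradiol, against 5.20, 5.16 and 5.15 in controls. Its arrays did not overlap at either level, as in 9 of the 12 (beside 0.85% of all genes above at both levels), and the difference was 0.27 (SE 0.05). USP15, a deubiquitinase, differed by 0.24, NAV3, a microtubule-binding protein, by 0.26, and ITGA2, the alpha subunit of a collagen receptor, by 0.25. EIF5, a translation initiation factor, differed by 0.31, REV3L, the catalytic subunit of a translesion DNA polymerase, by 0.39, and AGGF1, an angiogenic factor, by 0.35. RBAK, a zinc finger repressor, differed by 0.40, MTRR, which reactivates methionine synthase, by 0.23, SRBD1 by 0.26, and TEFM, a mitochondrial transcription elongation factor, by 0.19. The largest of the 12, PCF11, a subunit of the machinery that cleaves and polyadenylates transcripts, differed by 0.40 (SE 0.08).

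**Figure D3:**
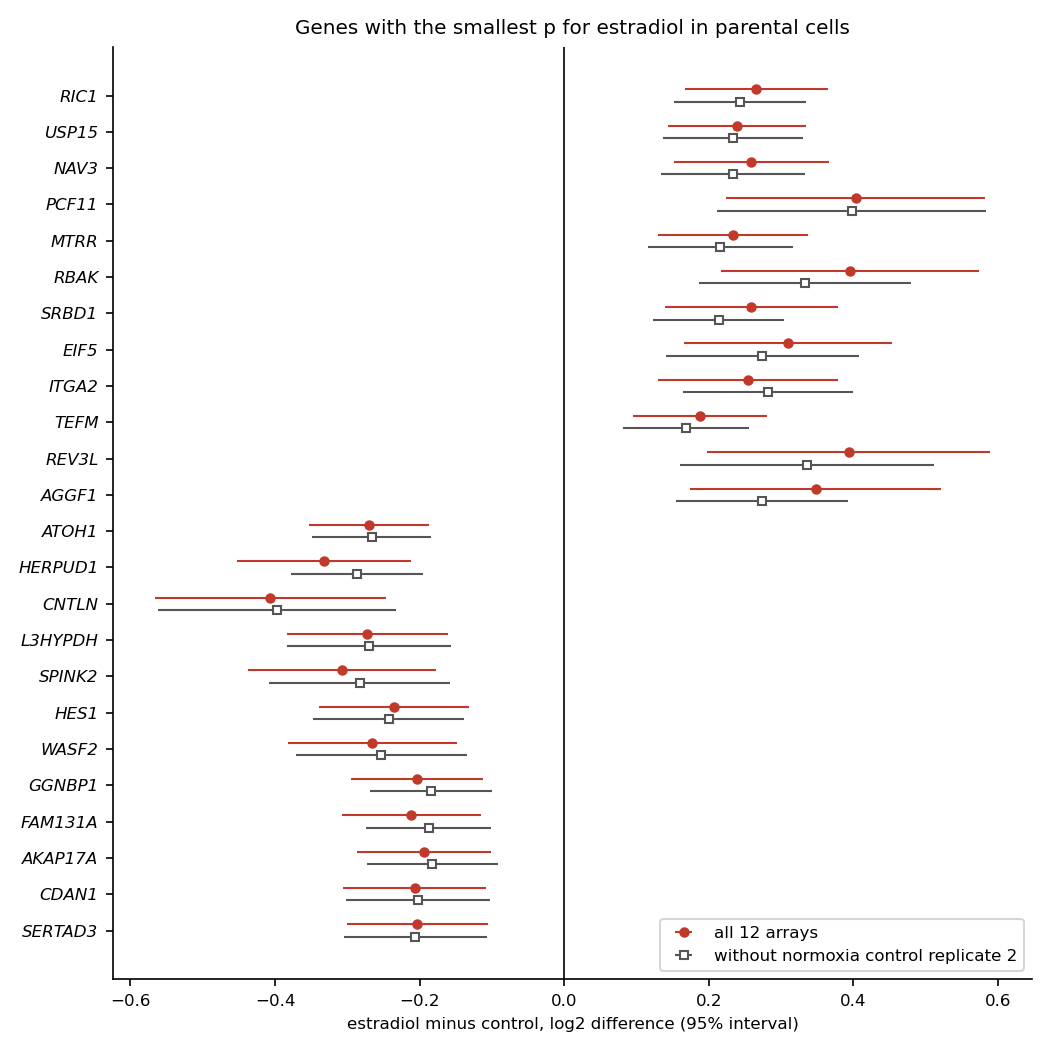
Log2 difference of estradiol minus control, with 95% intervals, for the 12 genes with the smallest p above control and the 12 below, over all 12 arrays (red circles) and without normoxic control replicate 2 (open grey squares). The estimates lie between 0.19 and 0.40 for the higher genes and between -0.41 and -0.19 for the lower ones, and none passed after adjustment.

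Within hypoxia 1 gene passed, and it fell. RSRP1, which encodes an arginine- and serine-rich protein, read 7.12, 7.17 and 6.98 with estradiol in hypoxia, against 8.01, 8.32 and 8.14 in hypoxic controls. The estradiol arrays all lay below the controls, by -1.07 (SE 0.10) on the log2 scale or 2.10-fold (limma, adjusted p = 0.00188). In normoxia it read 4.88, 4.84 and 4.83 with estradiol, against 4.73, 4.96 and 4.57 in controls, which overlap, with a difference of 0.10 (SE 0.10). This was the only call of 18239 genes in hypoxia (0.00548%), beside 950 at an unadjusted p under 0.05 (5.21%), or 1715 without replicate 2 of the normoxic control, which enters the shared estimate of the spread. The mean 3′ minus 5′ control signal did not overlap between the hypoxic groups either (above). With it as a covariate the hypoxic difference of RSRP1 was -1.10 (limma, adjusted p = 8.13e-05). Without normoxic control replicate 2 and without the covariate, limma gave adjusted p = 0.000139. That signal was 4.34 on that array, 2.28 to 2.65 on the other controls and 2.39 to 2.67 with estradiol. A single normoxic array thus dominates the covariate, and whether the hypoxic shift bears on RSRP1 was not tested. RSRP1 was also the only gene for which estradiol differed between hypoxia and normoxia by test, with an interaction of -1.16 (SE 0.14; limma, adjusted p = 0.0341; 955 genes at an unadjusted p under 0.05, 5.24%, or 1284 without that replicate). That interaction call rests on the brightest of 5 probe sets, and it ended in 14 of 23 alternatives, among them the mean of its probe sets. The other hypoxic differences were -0.51 and -0.50 at mean signals of 5.63 and 5.66, and -0.09 and -0.03 at dim means of 2.85 and 2.41. With the mean of probe sets the hypoxic difference was -0.44 (limma, adjusted p = 0.0488).

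RSRP1 was also one of the strongly oxygen-dependent genes of these cells. Its signal in hypoxia lay above that in normoxia by 2.24 on the log2 scale, or 4.72-fold, in estradiol-treated parental cells, and by 3.40, or 10.6-fold, in untreated ones. In untreated ESR2 cells, on other arrays, the same difference was 1.27. Other genes with a small p in hypoxia did not pass and were chosen after their values were seen. PCF11 read 5.30, 5.34 and 5.06 with estradiol in hypoxia, against 4.59, 4.59 and 4.72 in controls, and 6.83, 6.83 and 7.06 with estradiol in normoxia, against 6.84, 6.57 and 6.67 in controls. The separation was complete in hypoxia, as in 15.1% of genes, and partial in normoxia, with hypoxic and normoxic differences of 0.59 and 0.21 (limma, adjusted p = 0.325 in hypoxia). HPS6, a protein of lysosome-related organelles, differed by 0.33 in hypoxia and -0.04 in normoxia, SETMAR, a histone methyltransferase fused to a transposase, by 0.33 and -0.01, and ZNF114, a zinc finger protein, by 0.44 and 0.04. KRTAP4-9, a keratin-associated protein, differed by -0.61 in hypoxia and 0.14 in normoxia, and KIN, a nucleic acid-binding zinc finger protein, by 0.39 and 0.13. By oxygen, PCF11 was lower by -1.68 in hypoxia with estradiol and by -2.06 without, HPS6 by -1.59 and -1.96, SETMAR by -1.46 and -1.80, and ZNF114 by -1.03 and -1.43, and KRTAP4-9 was higher by 1.29 with estradiol and 2.04 without. The estradiol and oxygen values of a gene share its hypoxic arrays, so neither supports the other, and apart from RSRP1 no interaction passed (limma, adjusted p = 0.813 for KRTAP4-9 and 0.868 for PCF11, HPS6, SETMAR and ZNF114).

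Within normoxia limma called 0 genes (0%), with 2187 at an unadjusted p under 0.05 (12%), 912 higher (5%) and 1275 lower (6.99%). Without replicate 2 of the control there were 1442, 685 higher and 757 lower. The smallest adjusted p was 0.0537, for RAB43, a small GTPase of Golgi traffic, which differed by -0.47 (SE 0.06). MT1F, a zinc-binding metallothionein, came next and read 8.58, 8.64 and 8.41 with estradiol, against 8.95, 9.29 and 9.12 in normoxic controls. These groups did not overlap, as in 15.4% of genes in normoxia, and the difference was -0.57 (SE 0.09; limma, adjusted p = 0.208). In hypoxia MT1F read 8.89, 8.84 and 8.87 with estradiol, against 9.10, 9.00 and 8.92 in controls, a difference of -0.14. LMO2, a LIM-domain transcription cofactor, differed by -0.45 in normoxia. Across all genes the normoxic and hypoxic estradiol differences, which share no arrays, correlated at Pearson r = 0.23 and at 0.10 without the array that stood apart (18239 genes, which are not independent replicates).

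**Figure D4:**
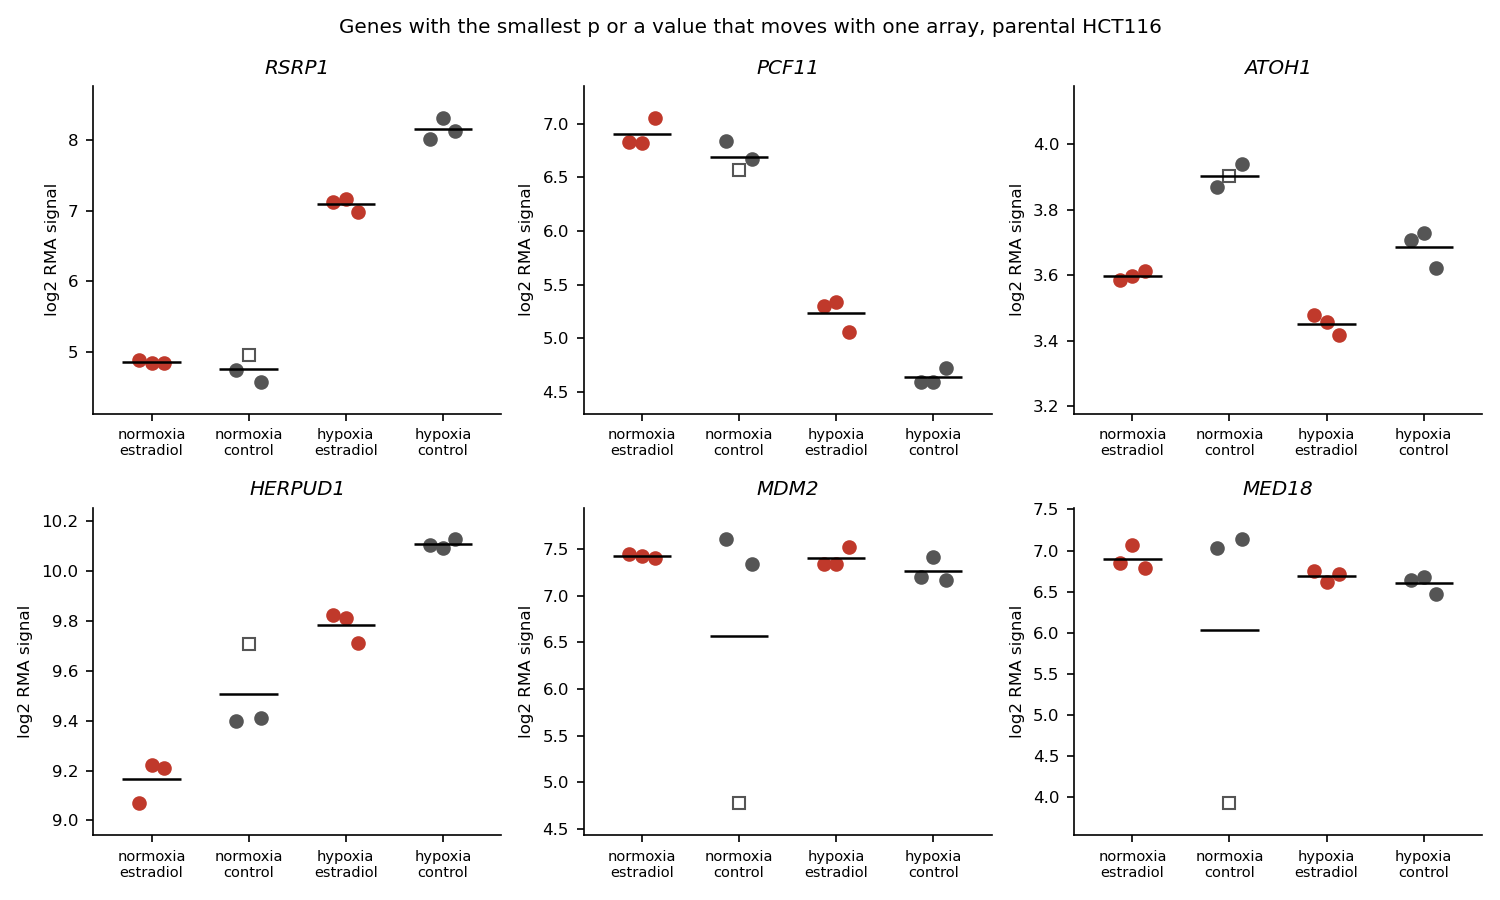
RMA log2 signal of 6 genes on each parental array, with estradiol in red, controls in grey, bars at group means of 3 arrays and an open square for normoxic control replicate 2. RSRP1 is lower with estradiol in hypoxia alone, by -1.07, while the open square is the lowest array of MDM2 and MED18, whose pooled differences of 0.50 and 0.48 became 0.06 and -0.03 without it.

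Among the 8 genes with the largest pooled differences in size, chosen after their values were seen, RSRP1 kept its value without replicate 2 of the normoxic control (-0.50, against -0.49 with it), and the other 7 moved by over 1.5 times. MDM2, the ubiquitin ligase of p53, read 7.45, 7.43 and 7.41 with estradiol in normoxia, against 7.61, 4.77 and 7.34 in controls. MED18, a Mediator subunit, read 6.84, 7.07 and 6.78 with estradiol in normoxia, against 7.03, 3.93 and 7.14 in controls. Both low controls are that array, and without it the pooled difference of MDM2 was 0.06, against 0.50 with it, and that of MED18 -0.03, against 0.48 with it. STARD10, a phospholipid transfer protein, differed by -0.53 with the array and -0.32 without it. SPINT1, a protease inhibitor of epithelia, differed by -0.48 with it and -0.12 without, UBA1, the main ubiquitin-activating enzyme, by -0.47 and -0.17, PFN1, an actin-binding protein, by -0.45 and -0.18, and APLP1 by -0.43 and -0.11. None of these passed in either set of arrays.

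Beyond the estrogen response, 30 other lists of genes and 4 lists of cell type markers were set against estradiol, chosen for the hormone, its medium, the cell line and hypoxia. Over all 35 lists 715 of 770 members were measured and 0 passed. The medians of the lists ranged from -0.07 to 0.11 on the log2 scale, beside -0.01 over all genes. The counts below at an unadjusted p under 0.05 stand beside 10.3% of all genes, 5.34% higher and 4.98% lower.

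Receptor cofactors and the enzymes that make and clear estrogens gave few members at an unadjusted p under 0.05. Of 17 cofactors, 1 was lower (TFAP2C, a transcription factor that works with the alpha receptor, -0.19, or -0.13 without the array that stood apart), while without that array none was lower and 1 was higher. CARM1, an arginine methyltransferase that coactivates it, differed by -0.17, or -0.08 without that array. Of 21 enzymes, HSD17B8, a hydroxysteroid dehydrogenase, differed by -0.16, or -0.10 without it, and CYP1B1, which hydroxylates estradiol, by 0.20, or 0.07.

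Stripping serum removes lipids and steroid hormones, so targets of other nuclear receptors and lipid synthesis were listed. Of 17 glucocorticoid targets, 1 was higher and 2 were lower at an unadjusted p under 0.05 (beside 5.34% and 4.98% of all genes). Their median was -0.07. PER1, a clock repressor, differed by -0.41, or -0.22 without the array that stood apart, DUSP1, a MAP kinase phosphatase, by -0.24, or -0.13, and RGS2, a regulator of G proteins, by 0.20. Of 15 vitamin D and retinoid targets, 1 was higher and 1 lower, of 17 LXR and PPAR targets 1 was lower (CPT1A, which carries fatty acids into mitochondria, -0.15), and of 10 aryl hydrocarbon receptor targets 2 were lower (1 without that array). Of 19 cholesterol synthesis genes, 3 were lower and 1 higher (none higher without that array), with a median of -0.05. EBP, a sterol isomerase, differed by -0.17 and did not overlap at either oxygen level, DHCR7, the last reductase of the pathway, by -0.14, MVD, a decarboxylase, by -0.15, or -0.08 without the array that stood apart, and SC5D, a desaturase, by 0.18, or 0.10. Of 17 fatty acid synthesis genes, 1 was higher and 1 lower (none higher without the array that stood apart), with a median of -0.04. The lower one was FADS1, another desaturase, which differed by -0.21, or -0.13 without that array.

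Growth and cell cycle lists held no call. Of 42 DNA replication genes, 5 were higher and 2 lower at an unadjusted p under 0.05 (3 and 3 without the array that stood apart). Over all genes 5.34% were higher and 4.98% lower, and the median of the list was 0.00. POLE2, a polymerase epsilon subunit, differed by 0.24 and MCM10, a replication initiation factor, by 0.16. Of 31 mitosis genes, 6 were higher and 2 lower, with a median of 0.01, among them CENPF (0.20) and CENPE (0.31, or 0.22 without the array that stood apart), both kinetochore proteins. Of 32 MYC and ribosome biogenesis genes, 5 were higher and 1 lower, with a median of 0.05, including the nucleolar proteins WDR43 (0.21), NOP58 (0.18), NOP56 (0.14) and DKC1 (0.11). Of 6 measured mismatch repair genes, 4 were higher at an unadjusted p under 0.05 (3 without the array that stood apart, beside 5.34% of all genes higher), with a median of 0.11, and these were PMS1 (0.23, or 0.14 without that array), EXO1 (0.12), MSH3 (0.12) and MSH6 (0.11). HCT116 is known for defective mismatch repair.

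Kinase signalling lists were mixed. Of 29 immediate early and MAPK feedback genes, 2 were higher and 4 lower at an unadjusted p under 0.05 (beside 5.34% and 4.98% of all genes). Their median was -0.05. EGR1, an immediate early transcription factor, differed by 0.23 and SPRED1, an inhibitor of the Ras pathway, by 0.21, while JUN, a subunit of AP-1, differed by -0.14 and ETV5, an ETS factor, by -0.17, or -0.11 without the array that stood apart. Among 23 genes of growth factor and insulin signalling, 1 was higher and 2 lower (none higher and 4 lower without the array that stood apart), with IGFBP6, a binding protein of insulin-like growth factor, at -0.20.

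Stress lists held no call either. Of 34 ATF4 and amino acid stress genes, 3 were higher and 7 lower at an unadjusted p under 0.05 (beside 5.34% and 4.98% of all genes). Their median was -0.05. SHMT2, the mitochondrial serine hydroxymethyltransferase, differed by -0.16, SLC6A9, a glycine transporter, by -0.20, and CHAC1, which degrades glutathione, by -0.12, whereas CEBPG, a partner of ATF4, differed by 0.15. Of 25 ER chaperone and stress genes, 3 were lower and none higher (6 lower without the array that stood apart), with HERPUD1 at -0.33 and SDF2L1, a chaperone cofactor, at -0.14. Among 20 heat shock genes, 1 was higher (DNAJA1, a cochaperone, 0.19) and 4 lower, including HSF1, the heat shock transcription factor, at -0.24. Of 27 p53 targets, 2 were higher and 2 lower, with FAS, a death receptor, at 0.25 and BBC3, a pro-apoptotic protein, at -0.21. Of 34 HIF targets, 3 were lower, namely BHLHE40, a transcriptional repressor (-0.25, or -0.15 without the array that stood apart), ADM, a vasodilator peptide (-0.14), and ALDOC, a glycolytic aldolase (-0.09). None of the 32 oxidative phosphorylation genes had an unadjusted p under 0.05.

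The other lists of pathways and cell states also held no call. At an unadjusted p under 0.05 there were 7 of 24 NRF2 targets, 4 higher and 3 lower, beside 10.3% of all genes in either direction. With and without the array that stood apart there were 3 and 5 of 33 type I interferon response genes, 2 and 3 of 22 NF-kB and cytokine genes, 1 and 0 of 20 Wnt and beta-catenin targets, 3 and 2 of 28 epithelial junction and keratin genes, 2 and 3 of 22 epithelial-mesenchymal genes, 1 and 2 of 26 differentiation genes of enterocytes and goblet cells, and 1 and 0 of 23 apoptosis regulators. Of 11 metallothionein and zinc genes, 1 was higher and 1 lower, or 0 and 2 without that array. Among the markers of cell types, 1 of 11 leukocyte genes and none of the colon epithelial, fibroblast or embryonic kidney genes had such a p.

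Estradiol in parental cells was set beside estradiol in ESR2 cells to see where the parental cells differ. These counts come from 1 fit to all 24 arrays, whose spread differs from that of the parental arrays alone. In normoxia limma called 2 genes in parental cells (MT1F and KLC3, 0.011%), both lower, and 0 in ESR2 cells, with 2524 (13.8%) at an unadjusted p under 0.05 in parental cells and 981 (5.38%) in ESR2 cells. The normoxic parental counts include control replicate 2, the array that stood apart. In the fit to the parental arrays alone, 2187 genes had such a p in normoxia with that array and 1442 without it. Without it the fit across both cell types gave 1244 in normoxic ESR2 cells. In hypoxia the fit to all 24 arrays called 3 genes in parental cells (RSRP1 and KRTAP4-9, lower, and KIN, higher, 0.0164%), with 846 (4.64%) at an unadjusted p under 0.05, and 10394 (57%) in ESR2 cells. The hypoxic ESR2 arrays with estradiol also stood apart in their control probe sets. The 3′ minus 5′ difference of the thr spike-in, a bacterial RNA added before labelling, averaged 3.98 ± 0.39 in those arrays (SD, n = 3), against 2.20 ± 0.18 in hypoxic ESR2 controls (SD, n = 3). In parental cells it averaged 2.65 ± 0.06 with estradiol in hypoxia (SD, n = 3), against 2.39 ± 0.07 in hypoxic controls (SD, n = 3). The part of this shift in the hypoxic ESR2 result was not tested.

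Tested as an interaction over all 24 arrays, the estradiol difference of parental cells minus that of ESR2 cells passed for 4460 genes (24.5%), 2351 higher (12.9%) and 2109 lower (11.6%). With the mean 3′ minus 5′ control signal as a covariate 3176 genes passed, 2095 higher and 1081 lower. Contrasting the normoxic arrays alone, an alternative chosen after seeing the data, 0 genes passed, with 1230 at an unadjusted p under 0.05 (6.74%). HIRA, a histone chaperone, had an interaction of 1.87 (SE 0.30), with parental differences of 0.08 in normoxia and 0.38 in hypoxia, against -0.35 and -2.93 in ESR2 cells. AKR1B10, an aldo-keto reductase, had the lowest, at -1.27 (SE 0.14), with parental differences of -0.12 in normoxia and 0.11 in hypoxia, against 0.43 and 2.09 in ESR2 cells. In both genes the value furthest from 0 was that of hypoxic ESR2 cells. Of the 32 estrogen response genes, 6 had a positive and 7 a negative interaction by this test (limma), and 0 did so in normoxia alone. RSRP1 differed by 0.14 in normoxia and by -0.36 in hypoxia in ESR2 cells (limma, adjusted p = 0.018 in hypoxia, where 57% of all genes passed). Its hypoxic ESR2 arrays overlapped, at 5.52 to 6.18 with estradiol and 6.01 to 6.33 in controls. Across genes the parental and ESR2 estradiol differences correlated at Pearson r = 0.08 in normoxia and -0.10 in hypoxia, with no arrays in common (18239 genes, which are not independent replicates).

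**Figure D5:**
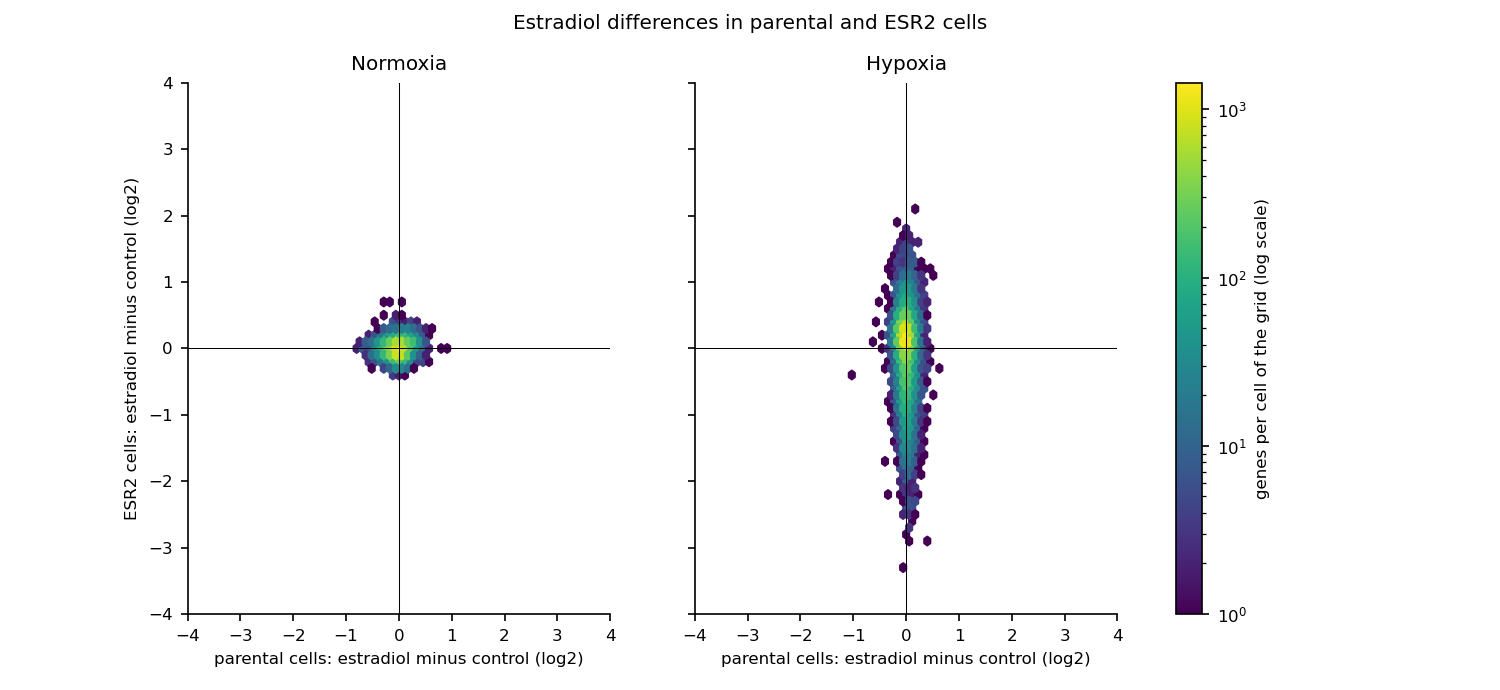
Log2 difference of estradiol minus control for each gene in parental cells (horizontal axis) and ESR2 cells (vertical axis), in normoxia (left) and hypoxia (right), with colour for the number of genes on a log scale. In hypoxia the spread lies along the ESR2 axis. In the fit to all 24 arrays 2 genes passed in normoxic parental cells and 0 in normoxic ESR2 cells, and 3 passed in hypoxic parental cells and 10394 in hypoxic ESR2 cells. The normoxic parental values include control replicate 2, the array that stood apart.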

How the data were processed

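The deposited values are log2 signals per probe set of Affymetrix 3′ arrays, made by the authors with affy and RMA, per the submitters' processing notes. RMA's quantile normalization removes much of a shift shared by most genes, and changes of dim genes are compressed in RMA values. Array medians lay between 4.07 and 4.13. Of 49386 probe sets, 45253 had a single symbol in GEO's platform annotation, and the brightest probe set per symbol over all 24 arrays was kept, with no filter on dim genes.

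The 12 parental arrays were fitted with limma 3.58.1 (lmFit and eBayes, R 4.3.3) as oxygen plus estradiol, with 9 residual degrees of freedom. Within-oxygen differences and their interaction came from 4 group means, and the interaction with cell type from 8 group means on all arrays. P-values were adjusted by Benjamini-Hochberg over 18239 genes at 0.05. The scripts were tested on simulated data. Tables used the data.table package (version 1.17.8) and figures matplotlib 3.10.9.

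Named genes are the 12 per direction with the smallest p for estradiol in parental cells, since none passed. To these were added the 5 largest per direction past the threshold in other comparisons, up to 4 members per list by smallest p, and the receptors, GREB1, TFF1 and PGR. Genes with the largest pooled differences, the smallest p within an oxygen level or a call under an alternative were named after the values were seen. The genes with the palindrome in their promoter were named too. The members and lists were chosen with earlier results of these data known. Alternatives covered normalization, centring, dim genes, probe set choice, prior, array weights, control probe sets as a covariate, the source of the spread, the replicate number as a block and each array left out. Promoter sequences are RefSeq's.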

Additional observations from a re-analysis of the deposited data

Results flagged for a closer look

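The estradiol difference of RSRP1 differed between oxygen levels by test, with an interaction (hypoxia minus normoxia) of -1.16 on the log2 scale (limma, adjusted p = 0.0341). It was the only gene past the threshold for that interaction in parental cells. The call ended in 14 of 23 alternatives, among them the mean of its probe sets and repeated quantile normalization.

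The test of the difference between parental and ESR2 cells marked 10 named genes. The interaction, parental minus ESR2, was 1.87 for HIRA, 1.68 for ARID1B, a chromatin remodelling subunit, 1.58 for LMNB1, a nuclear lamin, 1.48 for GRB10, an adaptor of the insulin receptor, and 1.37 for MAGOHB, of the exon junction complex. It was -1.27 for AKR1B10, -1.08 for IRF7, an interferon regulatory factor, -1.03 for VWA5A, -1.02 for CD68, a lysosomal protein of macrophages, and -1.01 for ABHD14B, a hydrolase. In hypoxic ESR2 cells estradiol differences of these 10 ran from -3.36 for ARID1B to 2.09 for AKR1B10, and in hypoxic parental cells from -0.17 for ABHD14B to 0.38 for HIRA. None of the 10 passed with normoxic arrays alone. The mean 3′ minus 5′ control signal was 3.74 ± 0.30 in hypoxic ESR2 cells with estradiol, against 2.10 ± 0.10 in their hypoxic controls (SD, n = 3 each). The part of this shift in the 10 values was not tested.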

How the results depend on the processing

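The count of 0 genes for estradiol in parental cells became 1 with probe sets averaged per gene (ATOH1, adjusted p = 0.0192), 3 with the control probe set index as a covariate (ATOH1, HERPUD1 and SP2, each at adjusted p = 0.0397), and 1 with the spread of all 8 groups (HERPUD1, adjusted p = 0.0422). It stayed at 0 to 0 as each array was left out. The normoxic count of 0 became 1 with arrays centred on their median and 1 without the dimmest genes (RAB43 in both), 2 with the spread of all 8 groups (MT1F and KLC3) and 431 with array weights, which gave control replicate 3 a weight of 4.80 and replicate 2 one of 0.121. It ran from 0 to 4 with each array left out, the 4 (CDKN1C, LMO2, MT1F and RAB43) without normoxic control replicate 1. The hypoxic count of 1 became 2 with the mean of probe sets (FSAF1 and RSRP1) and 3 with the spread of all 8 groups (KIN, KRTAP4-9 and RSRP1), and ran from 1 to 2 with each array left out. The interaction with oxygen, 1 gene, became 0 after repeated quantile normalization, 0 with centred arrays, 0 with the mean of probe sets and 0 with every probe set, and ran from 0 to 1 with each array left out. The interaction with cell type, 4460 genes, became 3176 with the control probe set index as a covariate and 6424 with array weights. It became 9121 of all probe sets. It became 0 with normoxic arrays alone and 0 with those less normoxic control replicate 2 (both chosen after seeing the data). With each array left out it ran from 3967 to 5004. The causes were not tested.

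Directions turned as follows. TFF1 became 0.0197 with array weights, 0.0133 with the covariate, and 0.0399 with the replicate block less normoxic control replicate 2, with which ESRRB became 0.0042, MED18 -0.0378 and PRR16 -0.0228. PRR16 became -0.0159 with the mean of probe sets, -0.0257 with array weights and -0.0183 with the covariate. The interactions of MAGOHB (-0.0081) and ABHD14B (0.0427) turned with normoxic arrays alone less that replicate. With each array left out ESR2 ran from -0.0256 to 0.045, PRR16 from -0.0313 to 0.0383, ESRRB from -0.0369 to 0.0308, TFF1 from -0.0614 to 0.0376, MED18 from -0.0295 to 0.684, PGR from -0.0252 to 0.0164, GPER1 from -0.0538 to 0.0319 and MROH7 from -0.0815 to 0.0246.

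Replicate numbers showed no clear pairing of the arrays. Over 18 same-numbered pairs the correlation of deviations ran from -0.29 to 0.14, with 1 over 0.1. In 5 of the 18 pairs an array correlated best with the same number among the 3 arrays of the other group. With the replicate block the estradiol count was 0. The low signal of ESR1, ESR2, TFF1 and PGR and the 3 arrays per group limit the comparison.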
